A study of Mus musculus with 10 samples.

Results

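The genes described are 34 secreted signals, their inhibitors and the transcription factors around them that are known from the niche of the intestinal crypt: WNT ligands, R-spondins, WNT inhibitors, bone morphogenetic proteins (BMPs) with their antagonists and a receptor, forkhead factors of the gut mesenchyme, and hedgehog pathway genes. The list was chosen with earlier results of these data known. Its genes were taken by gene symbol, by a rule that uses no measured value, from a table of 32132 genes. All 34 were found there, and all 34 were among the 19615 genes with enough counts to be tested. RNA from whole colons of adult wild-type C57BL/6 mice had been sequenced in 10 libraries, to ask how 4-HDHA, a hydroxy derivative of the fatty acid docosahexaenoic acid, affects expression in colitis. Every mouse drank 3% dextran sulfate sodium (DSS), a sulfated polysaccharide that injures the colon epithelium, for 7 days. During those days mice were injected intravenously once a day, per 20 g of body weight, with 200 ul of phosphate-buffered saline (PBS; 5 libraries) or with the same volume of 4-HDHA in PBS, its strength labelled as 5 um (5 libraries). Mice without DSS are not part of the comparison, so the values say nothing of how colitis itself moved these genes. The labels do not state that every library came from a separate animal, and p-values therefore measure the spread between libraries, which may be technical in part.

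WNT ligands secreted near the crypt base keep intestinal stem cells dividing, and R-spondins strengthen that signal by protecting the WNT receptors from removal. BMPs act in the opposite direction towards the crypt mouth, where they favor differentiation, and antagonists such as gremlin 1, made by mesenchymal cells below the crypts, hold them back at the base. Hedgehog ligand comes from the epithelium and is read by mesenchymal cells, in which Gli1, Ptch1 and Hhip are classical target genes. Forkhead factors of the FoxF and FoxL families act in the gut mesenchyme, and subepithelial telocytes with Foxl1 are a known source of WNT ligands. "Stromal" is thus a statement about where most of these genes are known to be made, which RNA from whole tissue cannot check. Ihh is a hedgehog ligand and is known from the epithelium, and Bmp2 is known from the epithelium as well. In bulk tissue, fewer cells of a type and less RNA per cell cannot be told apart.

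Among the members, Wnt11 was the 1 gene whose PBS and 4-HDHA libraries did not overlap, so the start of the gene is shown first, beside those of 2 other WNT ligand genes. The sequences are the 250 bases before an annotated transcript start, from RefSeq on GRCm38.p6 (the build also called mm10), and capitals mark the TCF/LEF motif CTTTGATC, the element bound by the nuclear partners of beta-catenin, read on either strand. The Wnt11 window shown, 1 of 2 for the gene, is chr7:98834862-98835111 on the plus strand and holds the motif in reverse orientation, as GATCAAAG, from 52 bases before the start. The Wnt5b window, chr6:119449387-119449636 on the minus strand, belongs to an internal transcript start, 1 of 3 starts with a window, and holds it from 71 bases before. The other Wnt11 window, chr7:98838595-98838844, and the other Wnt5b windows, chr6:119544348-119544597 and chr6:119467212-119467461, have no match. The Wnt9a window, chr11:59306680-59306929 on the plus strand, has no match.
Wnt11: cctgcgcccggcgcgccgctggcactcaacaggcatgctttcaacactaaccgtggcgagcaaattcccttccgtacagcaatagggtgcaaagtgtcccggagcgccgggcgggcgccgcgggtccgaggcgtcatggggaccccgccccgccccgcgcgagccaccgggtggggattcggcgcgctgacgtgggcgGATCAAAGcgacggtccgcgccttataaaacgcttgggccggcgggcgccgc
Wnt5b: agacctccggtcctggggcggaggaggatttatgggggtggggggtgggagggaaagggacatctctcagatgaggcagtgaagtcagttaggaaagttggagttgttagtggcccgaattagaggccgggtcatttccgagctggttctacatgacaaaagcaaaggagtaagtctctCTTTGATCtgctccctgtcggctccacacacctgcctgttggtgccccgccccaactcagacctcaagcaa
Wnt9a: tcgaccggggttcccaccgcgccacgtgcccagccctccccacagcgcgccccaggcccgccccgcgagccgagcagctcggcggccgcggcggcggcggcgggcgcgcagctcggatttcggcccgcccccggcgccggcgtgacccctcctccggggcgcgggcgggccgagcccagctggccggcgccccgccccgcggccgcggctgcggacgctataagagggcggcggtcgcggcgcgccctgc
RefSeq windows were found for 20 of the 34 members, 23 windows in all, and the motif was in 2 of them. Over all 32851 windows of this length it was in 263 (0.801%). A GLI motif, GACCACCCA, read on either strand, was in 0 of the 23 windows and in 74 of all windows (0.225%). A match is a run of letters and not a shown binding site, and the absence of one says only that these letters are not in that window.

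The libraries held 50915365 to 66470519 counts each. Levels between genes are compared in FPKM, fragments scaled to gene length and library size, as the authors deposited them. Epithelial genes dominated the tissue: Epcam, the epithelial adhesion molecule, averaged 563 FPKM and Krt8, an epithelial keratin, 2084 FPKM over the 10 libraries. The defining fibroblast genes were present, with Col1a1 at 45.7 FPKM, Dcn at 88.8 FPKM and Pdgfra, the receptor that marks subepithelial mesenchyme, at 7.72 FPKM. Smooth muscle genes were also high, with Acta2 at 368 FPKM.

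Of the niche genes, 6 averaged at least 10 FPKM, 17 lay between 1 and 10, and 11 were below 1. Grem1, the BMP antagonist gremlin 1, had the highest mean at 25.5 ± 17.8 FPKM (SD, n = 10). Bmp2 followed at 17.7 ± 4.85, then the hedgehog ligand Ihh at 16.0 ± 6.00 and the WNT inhibitor Sfrp1 at 12.7 ± 6.09. Dkk3, grouped here with the WNT inhibitors, had 12.5 ± 6.13, and the BMP receptor Bmpr1a 12.1 ± 1.79. The spread of Grem1 covers most of these neighbors. Rspo2 was the lowest member, at 0.0917 ± 0.0632 FPKM.

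**Figure D1:**
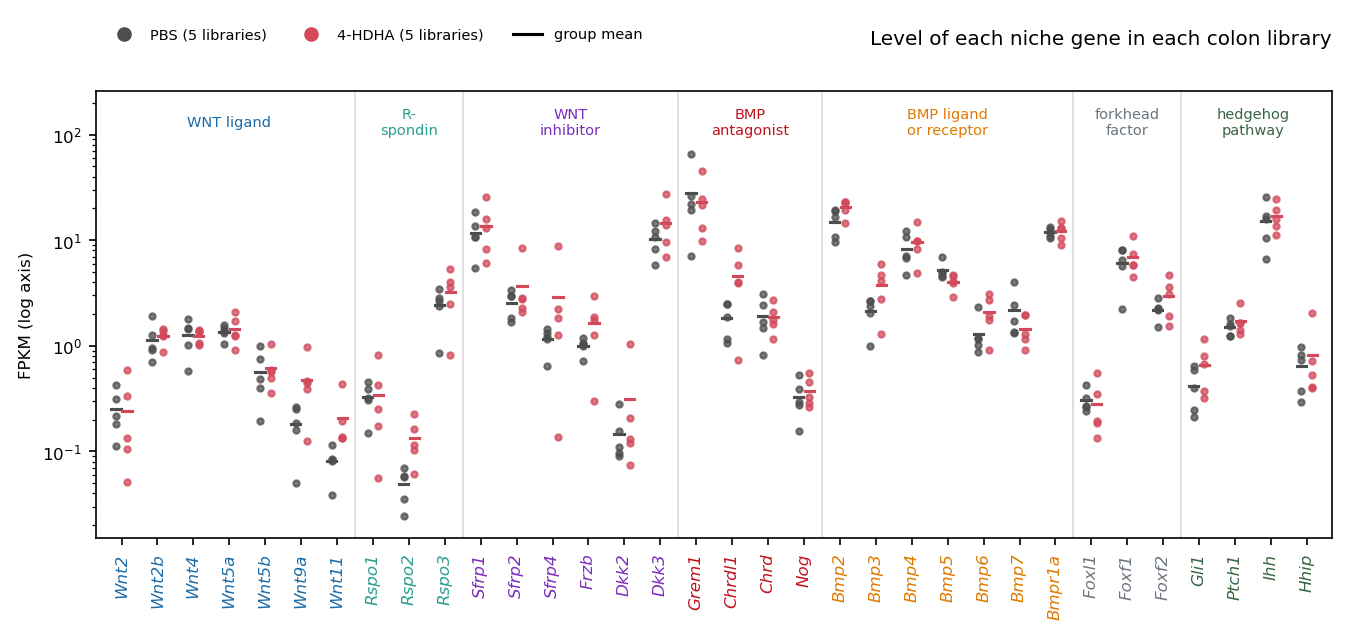
FPKM of the 34 niche genes (log axis) in the 5 PBS and 5 4-HDHA libraries, grouped by role; points are libraries and lines group means. Grem1 averaged 25.5 FPKM and Rspo2 0.0917 FPKM over the 10 libraries.

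Within each role the order of the levels was stable for some neighbors and not for others. Rspo3, the main R-spondin of these colons at 2.84 ± 1.36 FPKM (SD, n = 10), was above Rspo1 (0.335 ± 0.211) in 10 of 10 libraries. Among the ligands Wnt5a (1.40 ± 0.336 FPKM), Wnt4 (1.25 ± 0.341) and Wnt2b (1.19 ± 0.346) did not separate, Wnt5a lying above Wnt4 in 6 libraries and Wnt4 above Wnt2b in 5. All 3 exceeded Wnt5b (0.587 ± 0.271), Wnt9a (0.330 ± 0.262), Wnt2 (0.247 ± 0.170) and Wnt11 (0.144 ± 0.111) on average. Sfrp1 and Dkk3 could not be ordered, Sfrp1 being higher in 5 libraries. Grem1 exceeded Bmp4, a ligand that its product binds (8.88 ± 3.20 FPKM) in 10 of 10 libraries, by a ratio of 1.54 to 6.22 with PBS and 1.19 to 3.09 with 4-HDHA, but exceeded Bmp2 in 6 of 10. Ihh was above its receptor gene Ptch1 (1.60 ± 0.379 FPKM) in every library.

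The comparison of 4-HDHA with PBS was tested with edgeR's quasi-likelihood test, with Benjamini-Hochberg adjustment over all 19615 genes, and a positive log2 fold change means a higher level with 4-HDHA. No niche gene passed an adjusted p of 0.05 (0 of 34; 0% of all genes tested), and the smallest adjusted p among them was 0.295. DESeq2, the other count test run, called 0 of the 34 and 1.49% of all genes for which it gave an adjusted p. At an unadjusted p under 0.05, edgeR had 5 of 34 members (14.7%), where all genes tested had 14.8%, so by edgeR the members' share was near that of the background. DESeq2 had 7 of 34 at that level, the same 5 with Bmp3 (log2 fold change 0.81) and Bmp6 (0.69). Its share over all 31910 genes with a p-value was 11.8%. That set includes genes with too few counts for the edgeR test, unlike the members, so the shares are not directly comparable. Of the 5, Wnt11, Wnt9a, Rspo2 and Chrdl1 were higher and Bmp5 lower with 4-HDHA, and 7.39% of all genes were higher and 7.45% lower at this level. The count was 3 without PBS replicate 3, 4-HDHA replicate 2 or 4-HDHA replicate 4, and 10 without 4-HDHA replicate 5. The shares of all genes in those runs are not given here. Whether the change in count is particular to the members was therefore not tested. Fold changes were positive for 27 of the 34, beside 51% of all genes tested. Their median was 0.24, beside 0.01 for all genes tested. That median was 0.07, with 20 positive, without 4-HDHA replicate 4.

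**Figure D2:**
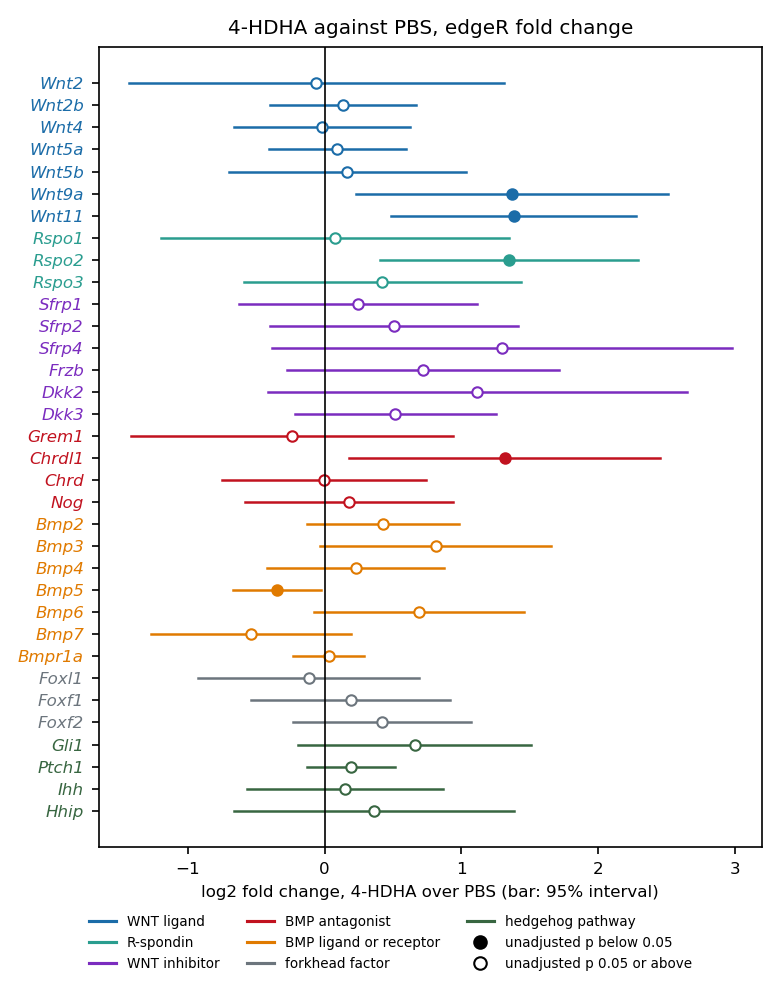
Log2 fold change of each niche gene, 4-HDHA over PBS (points, with bars for the 95% interval; filled points have an unadjusted p below 0.05), from edgeR with 5 libraries per group. Of the 34 genes 27 lie to the right of 0, and the 5 filled points are Wnt11, Wnt9a, Rspo2, Chrdl1 and Bmp5.

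Levels of 1 gene in different libraries are given in CPM, counts scaled to library size with edgeR's TMM factors. Wnt11, a ligand known for beta-catenin-independent signaling (chr7:98835112-98853811, plus strand), stood at 0.204, 0.375, 0.481, 0.381 and 0.443 CPM in PBS replicates 1 to 5. With 4-HDHA it stood at 0.715, 0.652, 0.584, 2.03 and 0.963 CPM. Each 4-HDHA library lay above each PBS library, with replicate 4 far above the other 4, and Wnt11 was the 1 member of 34 (2.94%) with such a separation, where 2.79% of all genes tested had it in either direction, 1.16% with 4-HDHA higher and 1.63% with it lower. These levels rest on 10 to 31 counts per PBS library and 35 to 116 counts per 4-HDHA library. The log2 fold change was 1.38 (SE 0.41, unadjusted p = 0.00602, adjusted p = 0.295 by edgeR), and 0.97 without 4-HDHA replicate 4.

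Wnt9a, a ligand known mostly from the skeleton and blood development (chr11:59306928-59333552, plus strand), had 0.756, 0.938, 0.853, 0.191 and 0.674 CPM with PBS and 1.53, 1.76, 1.51, 3.56 and 0.497 CPM with 4-HDHA. The first 4 of the 4-HDHA libraries lay above every PBS library, and replicate 5 lay among them. Its log2 fold change was 1.37 (SE 0.52, unadjusted p = 0.0229, adjusted p = 0.311 by edgeR). Wnt2, a mesenchymal ligand of the beta-catenin pathway, ranged from 0.264 to 1.02 CPM with PBS and from 0.140 to 1.48 CPM with 4-HDHA, a 10.6-fold span over the 10 libraries. The other ligands, Wnt2b (log2 fold change 0.14), Wnt4 (-0.02), Wnt5a (0.09) and Wnt5b (0.17), and Wnt2 (-0.06) itself, had fold changes smaller than their standard errors. Wnt5b overlaps the more abundant Fbxl14 on the other strand, and whether counting used strand is not given, so its value is uncertain.

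The more abundant ligands bounded any difference more closely. The 95% interval of the log2 fold change was -0.41 to 0.59 for Wnt5a, the best known ligand of beta-catenin-independent signaling in the gut mesenchyme, and -0.40 to 0.67 for Wnt2b, a mesenchymal ligand that acts through beta-catenin. For Wnt2 it was -1.43 to 1.31, so that changes of either sign by over 2-fold were within the error.

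Each of the 3 R-spondins had a positive fold change, at very different levels. Rspo2 (chr15:43020794-43170826, minus strand) had 0.470, 0.317, 0.202, 0.139 and 0.385 CPM with PBS and 0.694, 0.616, 0.861, 1.31 and 0.373 CPM with 4-HDHA. Only 4-HDHA replicate 5 fell inside the PBS range, and the counts behind the values were 8 to 23 per PBS library and 24 to 75 per 4-HDHA library. Its log2 fold change was 1.35 (SE 0.43, unadjusted p = 0.0093, adjusted p = 0.303 by edgeR). Rspo3, the most abundant of the family, had 8.98, 9.32, 10.6, 2.93 and 10.2 CPM with PBS and 14.5, 12.8, 7.91, 18.2 and 2.98 CPM with 4-HDHA. PBS replicate 4 and 4-HDHA replicate 5 had nearly the same level, each the lowest of its group, and the groups overlapped (log2 fold change 0.42, SE 0.46). Rspo1 ranged from 0.317 to 0.944 CPM with PBS and from 0.140 to 1.76 CPM with 4-HDHA (log2 fold change 0.08, SE 0.58).

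All 6 genes grouped here as secreted WNT inhibitors had positive fold changes, with a median of 0.62. None had an unadjusted p under 0.05. Dkk3 is in this group by its family, and whether it inhibits WNT in this tissue was not tested. Sfrp4, a secreted frizzled-related protein that binds WNT ligands, had 6.70, 5.30, 4.82, 3.00 and 7.42 CPM with PBS and 11.0, 8.73, 5.44, 41.0 and 0.683 CPM with 4-HDHA. The lowest and the highest library both belonged to the 4-HDHA group, 60.0-fold apart, and its log2 fold change of 1.30 (SE 0.76) was 0.24 without 4-HDHA replicate 4. Dkk2, a Dickkopf protein that blocks the WNT coreceptors, showed the same replicate apart, at 4.28 CPM against 0.292 to 0.898 CPM in the other 4 of its group and 0.361 to 1.05 CPM with PBS. Its log2 fold change was 1.12 (SE 0.69), and -0.05 without that library. The same library was also highest for Sfrp2 (20.3 CPM against 5.34 to 7.13), Sfrp1 (123 CPM against 30.9 to 79.7), Dkk3 (101 CPM against 27.4 to 59.6) and the frizzled-related gene Frzb (10.7 CPM against 1.15 to 7.21). Log2 fold changes were 0.72 for Frzb, 0.52 for Dkk3, 0.51 for Sfrp2 and 0.24 for Sfrp1, the last with a 95% interval of -0.62 to 1.11. Leaving that library out turned 3 of the 6 negative, Sfrp1 (-0.075), Sfrp2 (-0.036) and Dkk2, and left 0.40 for Frzb and 0.19 for Dkk3.

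Of the BMP antagonists, Chrdl1, the chordin-like protein 1 gene (chrX:143285674-143394262, minus strand), stood at 15.4, 17.8, 7.26, 8.63 and 20.8 CPM with PBS and at 31.9, 45.0, 27.3, 63.7 and 5.89 CPM with 4-HDHA. Replicates 1 to 4 with 4-HDHA exceeded every PBS library, and replicate 5 was the lowest of all 10. Its log2 fold change was 1.32 (SE 0.52, unadjusted p = 0.0271, adjusted p = 0.313 by edgeR). Grem1 had 133, 84.1, 274, 32.6 and 111 CPM with PBS and 120, 102, 41.7, 209 and 63.6 CPM with 4-HDHA. PBS replicates 3 and 4 held the highest and the lowest level of the 10 libraries, and the log2 fold change of -0.24 (95% interval -1.42 to 0.94) became 0.25 without PBS replicate 3. Nog, encoding the antagonist noggin, averaged 0.629 ± 0.257 CPM in the PBS libraries and 0.713 ± 0.205 CPM in the 4-HDHA libraries (SD, n = 5 each). Chrd, encoding chordin, averaged 13.3 ± 5.78 and 13.3 ± 4.20 CPM; it overlaps Thpo on the other strand, which makes its value uncertain.

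BMP ligands had fold changes of both signs. Bmp5 (chr9:75775364-75900310, plus strand), a ligand of the gut mesenchyme, was the 1 member lower at an unadjusted p under 0.05. It had 24.8, 20.7, 28.0, 20.3 and 22.1 CPM with PBS and 18.5, 13.4, 18.6, 21.0 and 19.5 CPM with 4-HDHA. The groups overlapped in 4-HDHA replicate 4, which lay above PBS replicates 2 and 4. Its log2 fold change of -0.35 had the smallest standard error of the 5 genes with an unadjusted p under 0.05 (SE 0.15, unadjusted p = 0.0379, adjusted p = 0.323 by edgeR), and ranged from -0.39 to -0.26 with 1 library left out. Bmp7, another ligand, had 12.0, 7.33, 16.0, 5.93 and 6.61 CPM with PBS and 6.08, 4.22, 4.81, 8.64 and 9.24 CPM with 4-HDHA (log2 fold change -0.54, SE 0.33). Its level was highest in PBS replicates 1 and 3, and the other 3 PBS libraries lay within the 4-HDHA range.

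Bmp3, an atypical family member that opposes BMP signaling, averaged 17.8 ± 5.80 CPM in the PBS group and 31.2 ± 15.0 CPM in the 4-HDHA group (SD, n = 5 each; log2 fold change 0.81, SE 0.38). Bmp6 averaged 5.65 ± 2.24 and 9.13 ± 3.87 CPM (log2 fold change 0.69, SE 0.35), and overlaps the far more abundant Txndc5 on the other strand. Bmp2, a ligand of differentiated epithelium and other cells, had 81.8, 61.8, 34.4, 42.0 and 84.2 CPM with PBS and 95.8, 93.8, 69.9, 89.0 and 60.1 CPM with 4-HDHA. PBS replicates 3 and 4 lay below the rest, and the log2 fold change was 0.43 (95% interval -0.13 to 0.98). Bmp4, a mesenchymal ligand and hedgehog-responsive gene, averaged 20.5 ± 6.39 and 24.0 ± 8.95 CPM. Bmpr1a, the type I receptor, was the steadiest member, at 83.0 to 86.2 CPM in the PBS libraries and 67.1 to 106 CPM with 4-HDHA, and its log2 fold change of 0.03 had a 95% interval of -0.23 to 0.29.

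The forkhead genes had no unadjusted p under 0.05. Foxf1 averaged 16.4 ± 5.96 CPM in PBS libraries and 18.7 ± 6.67 CPM in 4-HDHA libraries, and Foxf2 5.83 ± 1.25 and 7.80 ± 3.22 CPM (SD, n = 5 each; log2 fold changes 0.19 and 0.42). PBS replicate 4 was the lowest of the 10 libraries for both. Foxl1, the telocyte factor, had 1.06, 0.693, 1.16, 0.814 and 0.886 CPM with PBS and 1.12, 0.417, 1.52, 0.594 and 0.606 CPM with 4-HDHA. It was lower than every PBS library in 3 of the 4-HDHA libraries and higher than most of them in the other 2, with a log2 fold change of -0.11 (95% interval -0.92 to 0.69).

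Hedgehog pathway genes had positive fold changes in 4 of 4 members, none with an unadjusted p under 0.05. Ihh, the ligand, had 39.3, 82.4, 20.3, 53.1 and 63.8 CPM with PBS and 68.7, 54.8, 76.6, 38.1 and 48.9 CPM with 4-HDHA; the 4-HDHA libraries lay inside the PBS range (log2 fold change 0.15, 95% interval -0.57 to 0.87). Gli1, the transcription factor that is itself a target of the pathway, had 1.33, 3.13, 2.00, 3.57 and 1.56 CPM with PBS and 2.21, 1.85, 5.89, 4.45 and 3.93 CPM with 4-HDHA. Replicates 3 to 5 with 4-HDHA lay above every PBS library and replicates 1 and 2 among them (log2 fold change 0.66, SE 0.39); Gli1 overlaps the more abundant Arhgap9 on the other strand. Hhip, a decoy receptor for hedgehog ligands, had 4.15, 7.88, 6.68, 9.77 and 3.33 CPM with PBS and 4.31, 5.51, 19.1, 4.10 and 7.75 CPM with 4-HDHA. Replicate 3 with 4-HDHA stood alone, and the log2 fold change of 0.36 (SE 0.46) became -0.23 without it. The same library was highest for Ptch1, the receptor, at 36.5 CPM against 21.6 to 26.9 CPM in the other 9 libraries, whose log2 fold change was 0.19 (SE 0.15).

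**Figure D3:**
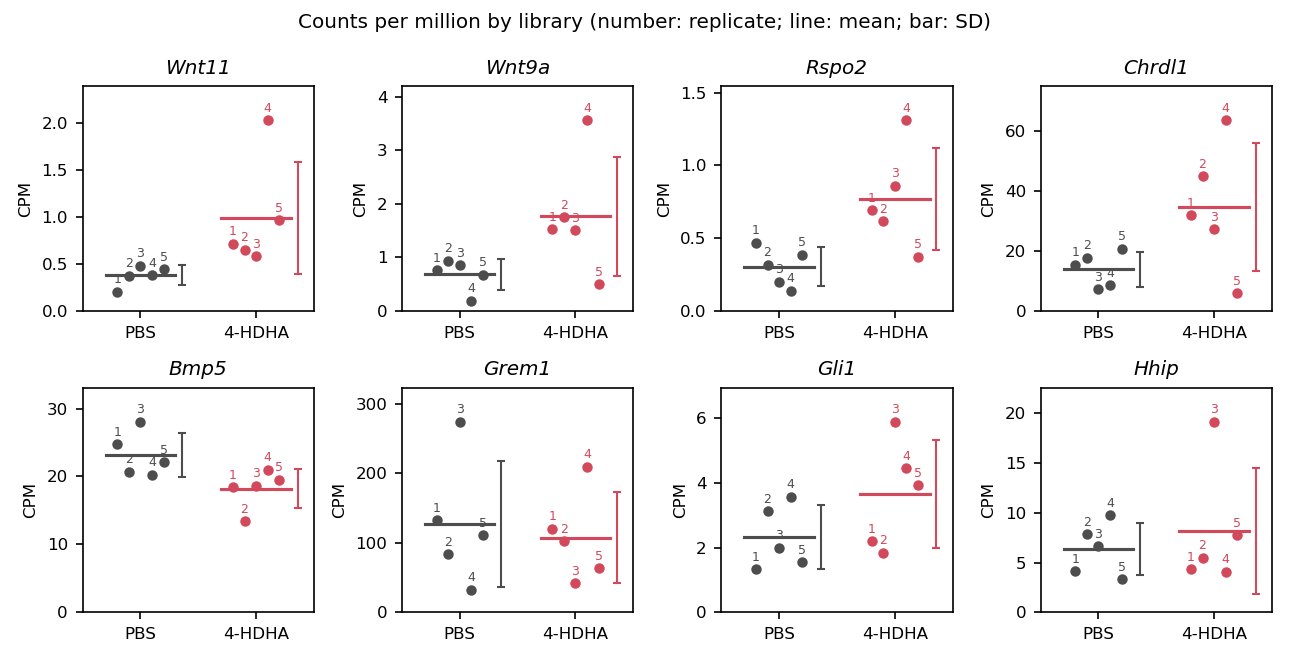
CPM of 8 niche genes in each library (numbers are replicates, lines group means, bars SD, n = 5 each; every axis starts at 0). The groups are apart for Wnt11, 4-HDHA replicate 4 is the highest library for Wnt11, Wnt9a, Rspo2 and Chrdl1, and 4-HDHA replicate 3 the highest for Gli1 and Hhip.

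Many members had their highest or lowest level in the same libraries. The 4-HDHA replicate 4 library held the highest level of the 10 for 22 of the 34 members. Among them were all 3 R-spondins and all 6 genes grouped as WNT inhibitors. The lowest level was in PBS replicate 4 for 13 members and in 4-HDHA replicate 5 for 8. The shares of all genes tested with their extremes in these libraries were not computed. Whether the pattern is particular to the members was therefore not tested. Hedgehog targets had another order, with 4-HDHA replicate 3 the highest for Gli1, Ptch1 and Hhip as well as Foxl1, and PBS replicate 3 was the highest for Grem1, Chrd, Bmp5 and Bmp7.

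**Figure D4:**
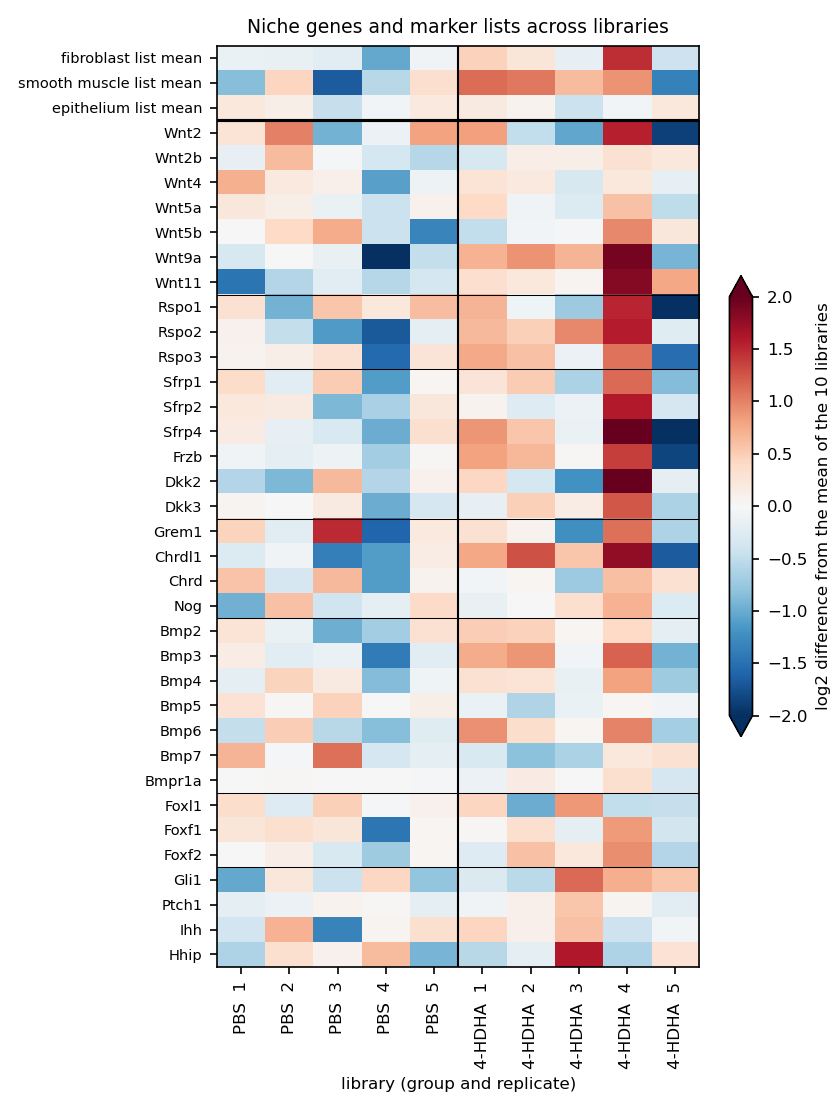
Log2 CPM of each niche gene and of 3 marker list means in each library, as the difference from the mean of the 10 libraries (red higher, blue lower, color limited to 2 log2 units). 4-HDHA replicate 4 is red for most genes and for the fibroblast list mean.

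Marker genes of tissue layers also differed between these libraries. The mean log2 CPM of 12 fibroblast genes, none of them a member, was 6.29 ± 0.39 with PBS and 6.93 ± 0.73 with 4-HDHA (SD, n = 5 each), highest in 4-HDHA replicate 4 at 8.08 and lowest in PBS replicate 4 at 5.59. All 12 had positive fold changes, 6 with an unadjusted p under 0.05 by edgeR, beside 14.8% of all genes. Their summed level was 1287 to 3017 CPM with PBS and 1782 to 8001 CPM with 4-HDHA. Pi16, a marker of adventitial fibroblasts, had a log2 fold change of 2.24 by edgeR. Its adjusted p was 0.291 by edgeR and 0.00871 by DESeq2. Thy1 had a log2 fold change of 0.88 and Cd34 of 1.16, while the defining genes Dcn, Col1a1 and Pdgfra had 1.00, 0.65 and 0.07. Marker lists of telocytes and of trophocytes, mesenchymal cells below the crypts, moved less, but both hold members. The telocyte median was -0.06, with 4 of 6 genes negative, among them F3 (-0.06) and Sox6 (-0.07). The trophocyte median was 0.16, with 2 of 5 negative. Outside the members, Pdpn had -0.26, Cd81 0.16 and Ackr4 0.66. The 12 smooth muscle genes, like the 12 fibroblast genes, all had positive fold changes. Of them 4 had an unadjusted p under 0.05 by edgeR, beside 14.8% of all genes. The smooth muscle list mean was 6.93 ± 0.87 and 7.87 ± 1.03 log2 CPM, with summed levels of 1126 to 5350 and 1515 to 8579 CPM. Their defining genes Acta2, Myh11, Des and Actg2 had log2 fold changes of 0.73, 0.88, 1.02 and 0.64. The epithelial list mean was 10.04 log2 CPM in both groups, with 6 of 12 genes positive. Adipocyte genes, 6 of 7 of them tested and all 6 positive, summed to 4.93 to 16.0 CPM with PBS and 24.1 to 150 CPM with 4-HDHA. Their median log2 fold change was 3.13, and 5 had an unadjusted p under 0.05 by edgeR, beside 14.8% of all genes. At an adjusted p of 0.05 DESeq2 called 5 of them, beside 1.49% of all genes, and edgeR 0. The part of adipocyte RNA in the values of the members was not tested. No marker gene of the fibroblast, smooth muscle, epithelial and adipocyte lists was at 0 in all libraries.

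How the members followed those tissue layers was fitted as a slope, the change in log2 level per log2 unit of a list mean, with the group in the model. The fit on the fibroblast mean was added after the values had been seen. On that mean 29 of 34 members had a positive slope, beside 48.9% of all genes tested, with a median of 0.72 beside -0.01. Sfrp4 (slope 2.02, SE 0.38, adjusted p = 0.0403 by edgeR) and Sfrp1 (slope 1.14, SE 0.20, adjusted p = 0.0365 by edgeR) passed an adjusted p of 0.05, which is 5.88% of the members, beside 1.29% of all genes tested, 1.24% with a positive and 0.051% with a negative slope. The 5 negative slopes were those of Foxl1 (-0.21) and all 4 hedgehog genes, Hhip (-0.97, SE 0.35, unadjusted p = 0.0194), Gli1 (-0.25), Ihh (-0.23) and Ptch1 (-0.09), none of which passed adjustment. These signs moved with single libraries. Foxl1 (0.091) and Ptch1 (0.037) were positive without 4-HDHA replicate 3, where Hhip had -0.62, and Ihh (0.14) was positive without 4-HDHA replicate 4, where Gli1 had -1.35 and Hhip -1.55. The difference between hedgehog and other members was not tested. The count of 2 rested on single libraries: leaving out PBS replicate 1, 4 or 5, or replicate 1, 3 or 4 of the 4-HDHA group, gave 0. Leaving out PBS replicate 2, or replicate 2 or 5 of the 4-HDHA group, gave 1, and leaving out PBS replicate 3 gave 6. The shares of all genes without these libraries are not given here. Positive slopes numbered 25 without 4-HDHA replicate 4 and 31 without 4-HDHA replicate 3. DESeq2 called 16 members with all 10 libraries, beside 4.3% of all genes.

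**Figure D5:**
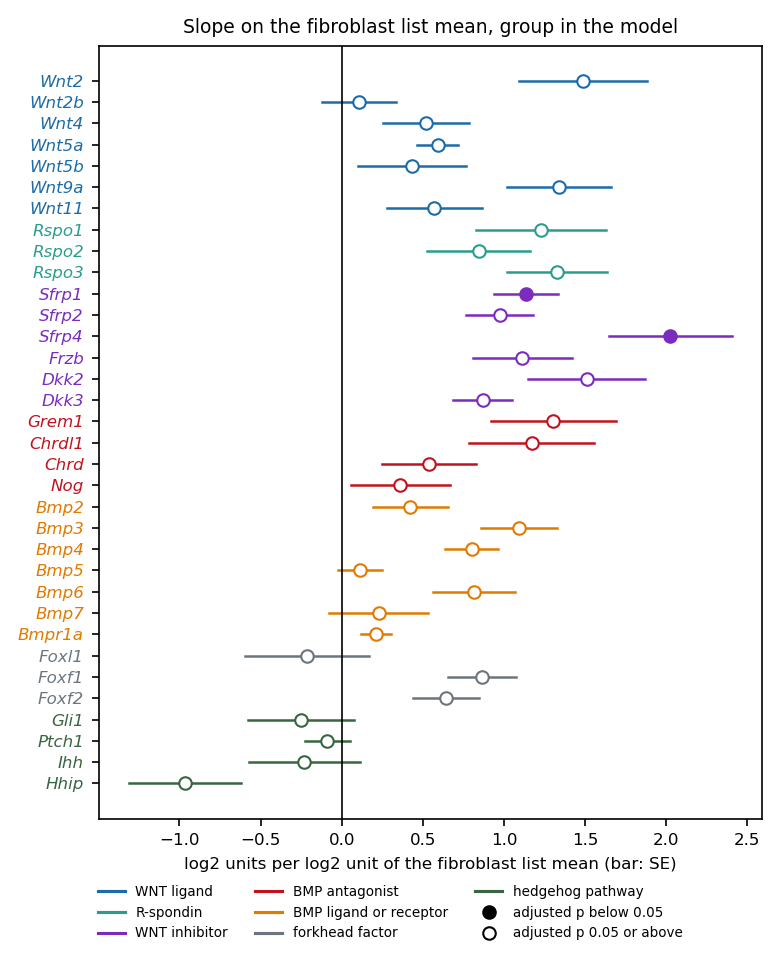
Slope of each niche gene on the fibroblast list mean, in log2 units per log2 unit, with the group in the model (points, with bars for the SE; filled points have an adjusted p below 0.05 by edgeR). The slopes of 29 of 34 genes are positive, and those of Foxl1, Gli1, Ptch1, Ihh and Hhip are negative.

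With the fibroblast mean held in the model, 13 of 34 members had a positive fold change with 4-HDHA and the median was -0.13. An unadjusted p under 0.05 was then reached by 4 members, beside 6% of all genes tested, all with a negative fold change: Wnt2 (-1.41), Grem1 (-1.13), Sfrp1 (-0.58) and Bmp5 (-0.42). Each of them had an adjusted p of 0.806 by edgeR. The fibroblast mean itself averaged 6.29 log2 CPM with PBS and 6.93 with 4-HDHA. The fit therefore cannot tell its part from that of the group. With the smooth muscle mean held instead, 19 members were positive, the median was 0.05 and Wnt11 alone had an unadjusted p under 0.05, beside 7.34% of all genes. Smooth muscle slopes were positive for 26 of 34 members, with a median of 0.21, and 0 members passed adjustment, beside 1.2% of all genes tested (0.709% with a positive and 0.495% with a negative slope). Without 4-HDHA replicate 4 the count was 1, Chrdl1, and DESeq2 called 3 members, Wnt2, Chrdl1 and Bmp6, beside 4.59% of all genes. Chrdl1 had the steepest of these slopes among members after Wnt2 and Sfrp4, at 0.96 (adjusted p = 0.0613 by edgeR). On the epithelial mean Ptch1 alone passed, with a slope of -0.72 (adjusted p = 0.0478 by edgeR), beside 8.24% of all genes tested (1.58% with a positive and 6.66% with a negative slope). That call was lost with any of the 10 libraries left out. Bmp2, whose slope with all 10 libraries was 1.16 and not called, was called instead without 4-HDHA replicate 5.

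Other genes of the same pathways were taken from lists of known members. Among them, too, 0 genes passed an adjusted p of 0.05 by edgeR. Their counts at the unadjusted level stand beside the 14.8% of all genes that edgeR had there, and their DESeq2 calls beside 1.49% of all genes. Of 12 other WNT ligands, 6 were tested and 2 had an unadjusted p under 0.05, both higher with 4-HDHA. Wnt10b had 0.225, 0.144, 0.109, 0.173 and 0.173 CPM with PBS and 0.633, 0.507, 0.415, 1.89 and 0.482 CPM with 4-HDHA. Wnt6 averaged 0.476 ± 0.0773 and 1.16 ± 0.348 CPM (SD, n = 5 each). Both stood apart between the groups without overlap and were called by DESeq2 (log2 fold change 2.24 and 1.28 by edgeR, DESeq2 adjusted p = 0.00725 and 0.0137), at levels near the lowest of the members. Of 14 tested WNT receptors and coreceptors, 2 had an unadjusted p under 0.05, a share near that of all genes: the frizzled genes Fzd7 (log2 fold change 0.66) and Fzd2 (1.09). Wls, the carrier that WNT ligands need for secretion, had -0.29 (unadjusted p = 0.0262 by edgeR), the 1 gene of 4 tested in its list under that level.

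The R-spondin receptor Lgr5, a marker of crypt stem cells, had 0.286, 0.188, 0.450, 0.243 and 0.289 CPM with PBS and 0.490, 0.290, 4.41, 1.43 and 1.27 CPM with 4-HDHA. The groups overlapped, and the highest library was 4-HDHA replicate 3, as for Gli1 and Hhip (log2 fold change 2.44, DESeq2 adjusted p = 0.0189, edgeR adjusted p = 0.291). Among 12 tested target genes of beta-catenin, 2 were higher and 1 lower at an unadjusted p under 0.05: Lgr5, Tnfrsf19 (log2 fold change 1.81, DESeq2 adjusted p = 0.0136) and, lower, the crypt-base receptor Ephb2 (-0.71). Fold changes in this list went both ways, 8 positive and 4 negative, with a median of 0.24. Other target genes with a negative fold change included Axin2 (-0.49) and Sox9 (-0.39), so the list did not move as a whole. Of 12 tested BMP ligands, receptors and SMADs, Smad9, a SMAD that BMP receptors act on, was higher (1.87 ± 0.302 and 4.38 ± 1.45 CPM, SD, n = 5 each, log2 fold change 1.23, DESeq2 adjusted p = 0.00309, edgeR adjusted p = 0.291) and Bmp8a lower (-0.74). The BMP antagonist Nbl1 was the 1 of 9 with an unadjusted p under 0.05 (0.70). Of 8 tested BMP target genes, 3 were higher at that level, Id4 (1.16), Id2 (0.45) and Msx1 (1.26). Among other hedgehog genes, the coreceptor genes Gas1 (1.95) and Cdon (0.56) were higher at that level. For Gas1 the PBS libraries ranged from 1.32 to 10.9 CPM and the 4-HDHA libraries from 5.19 to 48.6 CPM, highest in replicate 4.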

How the data were processed

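Poly(A) RNA of whole colon was sequenced as paired ends from strand-marked (dUTP) libraries, per the labels' protocols. Per the submitters' processing notes, the build was mm10, and the tools included StringTie 1.3.4d, HISAT2 2.0.4 and cutadapt 1.9, beside DESeq2 and edgeR. Sources used here give neither the order nor the settings, nor whether counting used strand. The authors deposited raw read counts per gene (55401 genes) and an annotated table of 32132 genes that repeats the counts, which differed in 0 cells, with positions and FPKM values, normalized by the authors to gene length and library size.

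The group comparison used edgeR 4.0.16 under R 4.3.3 on the counts (TMM factors, filterByExpr, robust quasi-likelihood F test of group) and adjusted by Benjamini-Hochberg over the 19615 genes kept. No covariate was used in the comparison of the groups. CPM values use the TMM factors, and list means are of log2 CPM with a prior count of 2. Intervals are at 95%, and an SE follows from the F test. Slope fits hold the group and a list mean. Alternatives were DESeq2 1.42.0, limma 3.58.1 on log2(FPKM + 1) and log2(FPKM + 0.1), which understate the fold changes of weakly expressed genes, RLE factors, no filter, covariates, a block for the replicate number, and leaving out libraries singly. Every member was named. From the pathway lists, up to 3 tested genes with the smallest p were named, beside Axin2 and Sox9. From the marker lists described, some of the defining genes were named, and for fibroblasts also the 3 genes with the smallest p. A result for 1 gene of the pathway lists is not reported here. Only edgeR's group test and its slope on the smooth muscle mean were tried on simulated counts. Those counts were drawn gene by gene, and the other fits were not simulated. The members and lists were chosen with earlier results of these data known.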

Additional observations from a re-analysis of the deposited data

Results flagged for a closer look

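In each group of 5 libraries, the highest or lowest library was set against the rest by its gap to the nearest library as a share of the group's range. For normally distributed values, chance marks about 1 group in 20. Member levels were taken in CPM without a log, where the rate by chance is not known. Of 78 groups 11 were marked, over the members and the smooth muscle, epithelium, fibroblast, adipocyte and B cell list means. The same libraries recur among them, so they are not 11 separate events. Their causes were not tested.

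Among the WNT genes, 4-HDHA replicate 4 stood above its group at 2.03 CPM for Wnt11, 41.0 CPM for Sfrp4, 20.3 CPM for Sfrp2 and 4.28 CPM for Dkk2. PBS replicate 4 stood below its group at 2.93 CPM for Rspo3, at 6.00 CPM for Foxf1 and at 5.59 log2 CPM for the fibroblast list mean. For Hhip, 4-HDHA replicate 3 stood above its group at 19.1 CPM. 4-HDHA replicate 5 was below its group for the smooth muscle list mean, at 6.05 log2 CPM against 8.02 to 8.51, and above it for the B cell list mean, at 6.16 log2 CPM against 0.60 to 1.61. The adipocyte list mean of PBS replicate 3 was -2.60 log2 CPM, against -0.35 to 0.35 in the rest of its group.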

How the results depend on the processing

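No alternative run gave a member an adjusted p under 0.05 in the comparison of 4-HDHA with PBS. Members with an unadjusted p under 0.05 numbered 5 in the main analysis, 7 with DESeq2 (beside 11.8% of a larger set of genes, not filtered for low counts), 5 with RLE factors, 6 without a filter, 4 with the fibroblast covariate, 3 on log2(FPKM + 1), 3 on log2(FPKM + 0.1), 1 with the smooth muscle covariate, and 3 to 10 with 1 library left out. The median log2 fold change was 0.07 to 0.38 with 1 library left out, 0.05 with the smooth muscle covariate and -0.13 with the fibroblast covariate. The fibroblast covariate and the fibroblast slopes were chosen after seeing the data. Slopes on the smooth muscle mean passed for 0 members in the main analysis, 3 with DESeq2 and 0 to 1 with 1 library left out. On the epithelial mean 1 passed, against 2 with DESeq2, 0 with RLE factors, 0 without a filter, 0 on log2(FPKM + 1) and 0 to 1 with 1 library left out. On the fibroblast mean 2 passed, against 16 with DESeq2, 5 with RLE factors, 1 without a filter, 10 on log2(FPKM + 1) and 0 to 6 with 1 library left out. By DESeq2, 4.59% of all genes with an adjusted p passed for the smooth muscle slope and 17.3% for the epithelial slope. Most counts in this section stand without the share of all genes in the same run. Whether they are particular to the members was therefore not tested, nor why they moved.

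The replicate numbers showed no sign of pairing the libraries: deviations of libraries with the same number correlated at -0.32 to 0.08, and no library correlated best with its own number. This check cannot decide whether the numbers mark pairs, because large differences between single libraries, as in the marker list means, could hide a pairing. With the number as a block, 3 members had an unadjusted p under 0.05, and 0 passed for the epithelial slope and 0 for the fibroblast slope. Under the block, Wnt4 (0.058), Rspo1 (-0.21) and Chrd (0.053) changed sign.

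Other changes of sign were in fold changes that no test called, and the cause was not tested. Chrd had 0.014 with DESeq2, 0.017 with RLE factors, 0.022 without a filter, 0.016 on log2(FPKM + 1), 0.051 on log2(FPKM + 0.1) and 0.23 with the smooth muscle covariate. Wnt4 had 0.011 and 0.053 on log2(FPKM + 1) and log2(FPKM + 0.1), and Rspo1 had -0.14 on log2(FPKM + 0.1). With the smooth muscle covariate, Wnt5a had -0.15, Rspo1 -0.56, Rspo3 -0.20, Sfrp4 -0.11, Frzb -0.091, Nog -0.095, Bmp4 -0.10, Bmpr1a -0.080 and Ihh -0.094. With the fibroblast covariate, Wnt5a had -0.32, Wnt5b -0.14, Rspo1 -1.12, Rspo3 -0.46, Sfrp1 -0.58, Sfrp2 -0.28, Sfrp4 -0.73, Frzb -0.18, Dkk2 -0.46, Dkk3 -0.11, Nog -0.071, Bmp4 -0.32, Bmpr1a -0.12, Foxl1 0.0051, Foxf1 -0.34 and Foxf2 -0.022. With 1 library left out, fold changes ranged from -0.68 to 0.20 for Wnt2, -0.21 to 0.20 for Wnt4, -0.057 to 0.21 for Wnt5a, -0.076 to 0.41 for Wnt5b, -0.49 to 0.35 for Rspo1, -0.075 to 0.43 for Sfrp1, -0.036 to 0.65 for Sfrp2, -0.047 to 1.41 for Dkk2, -0.60 to 0.25 for Grem1, -0.20 to 0.17 for Chrd, -0.039 to 0.11 for Bmpr1a, -0.43 to 0.058 for Foxl1, -0.022 to 0.30 for Foxf1, -0.056 to 0.38 for Ihh and -0.23 to 0.57 for Hhip. Wnt11 and Rspo2 rest on 10 to 116 and 8 to 75 counts per library, which limits their precision.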
